A study of Mus musculus with 6 samples.

Results

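The genes described here are 9 Toll-like receptor genes of the mouse (Tlr1, Tlr2, Tlr3, Tlr4, Tlr6, Tlr7, Tlr8, Tlr9 and Tlr13) and Cd14, which encodes a coreceptor for bacterial lipopolysaccharide. They were chosen by symbol, with earlier results of these data known. All 10 were found among the 45706 Ensembl gene identifiers of the count table. RNA-seq libraries of mouse bone marrow were compared between medium conditioned by tumour cells and control medium. Conditioned medium came from the clear cell renal cell carcinoma (ccRCC) lines VpR83, VpR99, VpR126 and VpR2020, with 1 library for each line, and control medium is represented by replicates 1 and 2. The 4 lines therefore stand as replicates of conditioned medium, and no line can be tested against another. The labels give no strain, age, culture time or added agent for either group, and no label tells whether each library stands for its own animal or culture. The p-values therefore reflect only how these libraries vary, and that variation may be technical. The design text of the series speaks of fresh marrow as the comparator and the headers of the control columns name no medium, so the effects of the medium and of time in culture cannot be told apart. The headers of VpR83, VpR99 and VpR126 also hold tags that no label explains, Ctrl for VpR83, T1 for VpR99 and LT2 for VpR126.

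Toll-like receptors are membrane proteins with which innate immune cells sense microbes. TLR2 pairs with TLR1 or TLR6 at the cell surface to bind lipopeptides, and TLR4 binds lipopolysaccharide there with MD-2, helped by CD14. TLR3, TLR7, TLR8, TLR9 and TLR13 act in endosomes on nucleic acids, and depend on the chaperone UNC93B1 to get there. All signal through the adaptor MyD88 except TLR3, which uses TRIF, while TLR4 uses both.

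Counts totalled 28055913, 129120559, 25714176 and 19412158 in VpR83, VpR99, VpR126 and VpR2020, and 27448621 and 18629708 in control replicates 1 and 2. Levels are given as CPM, read counts relative to library size with TMM scaling factors. Of 15141 genes that passed the filter on low counts, 42.2% were called at an adjusted p below 0.05 by edgeR's quasi-likelihood test, 22.5% as higher in conditioned medium and 19.7% as lower. Marker lists of blood cell types differed between the groups as well. All 10 macrophage markers were called higher, with a summed level of 16750 to 28667 CPM in conditioned medium and 818 to 823 CPM in control medium. Late neutrophil markers (9 of 10 lower) summed to 3142 to 15934 CPM in conditioned medium and 79876 to 87446 CPM in control medium. Neutrophil precursor markers (1 of 5 lower) summed to 391 to 2529 CPM in conditioned medium and 3649 to 3795 CPM in control medium. B cell markers (7 of 10 lower) summed to 206 to 860 CPM in conditioned medium and 2818 to 3035 CPM in control medium, and plasmacytoid dendritic cell markers (5 of 6 lower) to 16.7 to 141 CPM in conditioned medium and 335 to 389 CPM in control medium. Conventional dendritic cell markers (2 of 8 higher, 3 lower) summed to 309 to 420 CPM in conditioned medium and 231 to 243 CPM in control medium. Monocyte markers (1 of 7 lower) summed to 1882 to 3788 CPM in conditioned medium and 1921 to 1938 CPM in control medium. Erythroid genes (8 of 8 lower) summed to 0.113 to 0.718 CPM in conditioned medium and 2030 to 4530 CPM in control medium. T and NK cell genes (8 of 8 lower) summed to 4.15 to 16.9 CPM in conditioned medium and 120 to 132 CPM in control medium. Eosinophil, basophil and mast cell genes (7 of 8 lower) summed to 29.4 to 113 CPM in conditioned medium and 587 to 869 CPM in control medium. Epithelial genes, looked at for carried-over tumour cells, summed to 3.54 to 17.96 CPM in conditioned medium and 18.8 to 21.4 CPM in control medium. Cdh1 alone had 7.21, 17.3, 3.72 and 3.15 CPM in VpR83, VpR99, VpR126 and VpR2020, against 16.7 and 13.3 CPM in controls 1 and 2. Krt8 had 0 counts in the 4 conditioned libraries and 2 and 5 counts in controls 1 and 2, while Krt19 had 0 in all 6 libraries. No library is of the tumour lines themselves, so these values cannot tell whether tumour cells were carried over. In such bulk samples fewer cells of a type and less RNA per cell cannot be told apart, and the part of cell composition in the results on the receptors was not tested.

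Promoter windows from RefSeq (GRCm38.p6, 250 bases before to 50 after a transcription start) were matched for 7 of the 10 genes, those of Tlr1, Tlr2, Tlr3, Tlr6, Tlr8, Tlr9 and Tlr13. Those of 4 receptors are printed 5′ to 3′ on the gene's strand: Tlr3, whose transcript differed most between the groups, Tlr9, which differed most between the lines, Tlr13, the receptor transcript with the highest mean level per length in conditioned medium, and Tlr2, which was not called. Capitals mark matches on either strand to GAGGAA (a PU.1-type ETS core), TGANTCA (AP-1), GAAA followed after any 2 bases by GAAA (the core of the interferon-stimulated response element) or the κB consensus.
Tlr3 (chr8:45410331-45410630, minus strand): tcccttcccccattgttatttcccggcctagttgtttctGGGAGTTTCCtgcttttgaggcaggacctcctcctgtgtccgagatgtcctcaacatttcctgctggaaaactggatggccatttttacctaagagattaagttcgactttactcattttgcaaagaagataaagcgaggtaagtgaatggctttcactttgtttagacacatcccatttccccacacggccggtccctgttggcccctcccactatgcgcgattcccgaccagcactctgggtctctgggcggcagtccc
Tlr9 (chr9:106222348-106222647, plus strand): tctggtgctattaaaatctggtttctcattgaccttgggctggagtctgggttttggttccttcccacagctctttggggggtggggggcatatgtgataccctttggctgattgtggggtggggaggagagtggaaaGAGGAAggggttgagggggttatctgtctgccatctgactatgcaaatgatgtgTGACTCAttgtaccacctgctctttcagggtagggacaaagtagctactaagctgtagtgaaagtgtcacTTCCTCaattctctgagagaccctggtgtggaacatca
Tlr13 (chrX:106143025-106143324, plus strand): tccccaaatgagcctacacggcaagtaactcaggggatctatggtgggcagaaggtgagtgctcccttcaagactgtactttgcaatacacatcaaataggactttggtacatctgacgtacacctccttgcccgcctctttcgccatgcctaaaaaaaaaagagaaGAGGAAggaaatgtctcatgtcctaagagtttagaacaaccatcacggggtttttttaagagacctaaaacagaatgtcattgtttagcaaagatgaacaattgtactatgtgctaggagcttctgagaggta
Tlr2 (chr3:83841559-83841858, minus strand): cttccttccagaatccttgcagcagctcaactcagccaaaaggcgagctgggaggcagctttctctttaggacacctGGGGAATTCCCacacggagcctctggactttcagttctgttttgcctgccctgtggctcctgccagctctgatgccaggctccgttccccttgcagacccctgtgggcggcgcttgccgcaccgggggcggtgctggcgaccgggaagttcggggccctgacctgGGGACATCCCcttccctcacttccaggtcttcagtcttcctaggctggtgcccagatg
In the Tlr3 window the capitals are a single κB match, and in the Tlr2 window they are κB matches at 2 places, the first of which holds overlapping matches. The Tlr9 window holds GAGGAA on each strand and an AP-1 match, and the Tlr13 window 1 GAGGAA. Among all 9 windows of these genes, GAGGAA was found in 4, the κB consensus in 2, and the AP-1 and interferon motifs in 1 each. Among all 32851 windows of the same length, these motifs were found in 28.3% (GAGGAA), 8.46% (κB), 7.81% (AP-1) and 3.44% (interferon core). A match describes letters only.

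Transcripts of 8 of the 10 genes rose in conditioned medium and none fell, against 22.5% of all tested genes called higher. Since the 10 were chosen with earlier results of these data known, the comparison with all tested genes is a description only. None of the 3 Toll-like receptor genes outside the set was called (log2 fold changes 0.60 for Tlr5, 0.88 for Tlr11 and -1.71 for Tlr12). The median log2 fold change of the 10 was 2.95, beside -0.01 over all tested genes. In all 10, every conditioned library lay above both controls, which held for 32% of tested genes. Over all tested genes 33.3% lay wholly below the controls, so that 65.3% did not overlap between the groups in either direction. Tlr2 and Cd14, which did not pass the test, were also the genes on which the controls differed most.

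**Figure D1:**
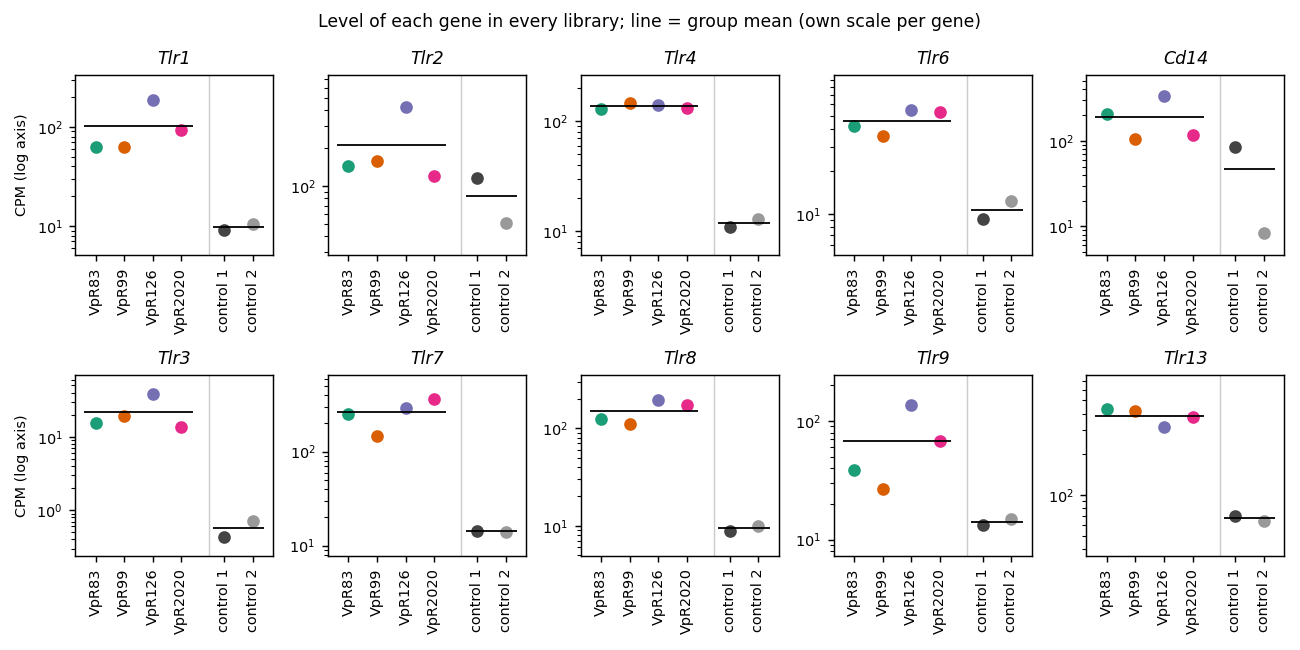
Level of each gene in CPM (log axis, own scale per gene) in the 4 conditioned libraries (left) and the 2 controls (right), with horizontal lines at the group means. Controls lie below every conditioned library in each panel, by the narrowest margin for Tlr2 and Cd14, where the control points are far apart.

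Among the endosomal receptors, Tlr3, which encodes the sensor of double-stranded RNA (chromosome 8, 45395665 to 45411080, GRCm38), had 15.6, 19.0, 38.8 and 13.8 CPM in VpR83, VpR99, VpR126 and VpR2020, against 0.433 and 0.705 CPM in control replicates 1 and 2. The control values rest on 13 and 15 counts, with exact 95% Poisson intervals of 0.231 to 0.741 and 0.395 to 1.16 CPM, which cover counting error only. The lowest conditioned library was 19.5 times the higher control. Tlr3 had a log2 fold change of 5.27 ± 0.64 (SE; adjusted p = 0.0019, edgeR), or 38.7-fold. An annotated antisense gene, Gm45542, overlaps Tlr3, and the counting's strand setting is not given in the sources used here, so reads of both cannot be told apart.

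Tlr7, a sensor of single-stranded RNA (X chromosome, 167304929 to 167330558), had 249.99, 146, 294 and 365 CPM in VpR83, VpR99, VpR126 and VpR2020, against 14.5 and 14.1 CPM in controls 1 and 2. Its neighbour Tlr8, which lies 40599 bases away, had 124, 112, 197 and 174 CPM in the same conditioned libraries, against 8.90 and 10.1 CPM in the controls. TLR8 senses single-stranded RNA in human cells. Neither gene overlapped between the groups, the lowest conditioned library being 10.1 (Tlr7) and 11.1 times (Tlr8) the higher control. The log2 fold changes were 4.21 ± 0.43 for Tlr7 (edgeR adjusted p = 0.0013) and 4.0 ± 0.32 for Tlr8 (adjusted p = 0.00069).

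Tlr13, whose product recognises bacterial ribosomal RNA in the mouse (X chromosome, 106143204 to 106160493), had 429, 416, 318 and 378 CPM in VpR83, VpR99, VpR126 and VpR2020, against 70.1 and 64.1 CPM in controls 1 and 2. The groups were well apart, and among the 10 genes this was the one lowest in VpR126 of the conditioned libraries. It rose by 2.52 ± 0.20 on the log2 scale (edgeR adjusted p = 0.00063).

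Tlr9, the receptor gene for unmethylated CpG DNA (chromosome 9, 106222598 to 106226883), had 38.4, 26.7, 136 and 67.6 CPM in VpR83, VpR99, VpR126 and VpR2020, against 13.2 and 15.0 CPM in controls 1 and 2. The groups did not overlap, but the conditioned libraries spread over 5.10-fold, the widest range of the 10 genes. Its log2 fold change was 2.25 ± 0.70 (edgeR adjusted p = 0.041). The call did not hold without control replicate 1 (adjusted p = 0.20), control replicate 2 (0.17) or VpR2020 (0.075), nor under upper-quartile scaling (0.052), without a low-count filter (0.11) or with limma-voom (0.075), over a range of 0.0013 to 0.20.

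Among the surface receptors, Tlr4, the lipopolysaccharide receptor gene (chromosome 4, 66827584 to 66930284), had 129, 148, 140.4 and 133 CPM in VpR83, VpR99, VpR126 and VpR2020, against 10.9 and 12.9 CPM in controls 1 and 2. The conditioned libraries were within 1.15-fold of each other, less than the 1.19-fold between the controls, and the lowest was 9.95 times the higher control. Tlr4 rose by 3.53 ± 0.17 on the log2 scale (edgeR adjusted p = 0.00015), and the call held under all 13 alternatives (3.29 to 3.68).

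The TLR2 partners Tlr1 and Tlr6 are neighbours on chromosome 5, 18467 bases apart. Tlr1 (64924679 to 64933563) had 63.0, 62.0, 187 and 93.5 CPM in VpR83, VpR99, VpR126 and VpR2020, against 9.13 and 10.4 CPM in controls 1 and 2. Tlr6 (64952031 to 64960097) had 41.8, 35.5, 54.4 and 52.6 CPM in the same conditioned libraries, against 9.10 and 12.3 CPM in the controls. In both, all conditioned libraries lay above the controls, and the lines differed 3.02-fold in Tlr1 and 1.53-fold in Tlr6. The log2 fold changes were 3.37 ± 0.57 for Tlr1 (edgeR adjusted p = 0.0056) and 2.11 ± 0.26 for Tlr6 (adjusted p = 0.0019). The Tlr1 call was lost without control replicate 1 or 2 (adjusted p = 0.058 and 0.052, range 4.6e-10 to 0.058). Of the 50-base windows of their transcripts, 15.4% (Tlr1) and 12.3% (Tlr6) also occur in transcripts of another gene, chiefly in each other's, so their values are uncertain to the extent that the counting split such reads.

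Tlr2, the shared partner in the lipopeptide receptors (chromosome 3, 83836272 to 83841767), had 145, 159, 425 and 119.9 CPM in VpR83, VpR99, VpR126 and VpR2020, against 115 and 51.0 CPM in controls 1 and 2. The lowest conditioned library was only 1.04 times the higher control. Its log2 fold change was 1.35 ± 0.63 (edgeR adjusted p = 0.13), and it was called under none of the 13 alternatives (0.051 to 0.45).

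Cd14 (chromosome 18, 36725067 to 36726798) had 205, 105, 331 and 116 CPM in VpR83, VpR99, VpR126 and VpR2020, against 84.9 and 8.27 CPM in controls 1 and 2. The controls differed 10.3-fold, more than the 3.14-fold range of the lines. With both controls, the log2 fold change was 2.02 ± 0.96 and did not pass the test (edgeR adjusted p = 0.13). Without control replicate 1 it was 4.51 and passed (adjusted p = 0.037), in a fit where the remaining control takes its spread from the conditioned libraries. Without control replicate 2 it was 1.17 (adjusted p = 0.30), and DESeq2 called it with both controls (2.01, adjusted p = 0.030, range 0.030 to 0.30).

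The difference of Cd14 between the controls went along with genes of acute activation. Of 9 immediate early genes, which respond within minutes to stimulation and handling, all 9 were higher in control replicate 1 than in replicate 2, by a median of 2.88-fold. Nr4a1, a nuclear receptor gene of this kind, had 15.9 ± 7.57 CPM in conditioned medium (SD, n = 4), and 498 and 53.9 CPM in controls 1 and 2. Among the 9, the control difference ran from 1.30-fold (Ier2) to 22.2-fold (Atf3). In conditioned medium 3 of the 9 fell, 0 rose and 6 were not called, beside 19.7% and 22.5% of all tested genes that fell and rose. Egr1 and Atf3 had log2 fold changes above 0 (1.14 and 0.56). Of 15 tested response genes of Toll-like receptor signalling, 13 were higher in control replicate 1 (median 5.19-fold). Over all 15141 tested genes 7541 were higher there, with a median of 0.998-fold that leaves out genes with 0 counts in replicate 2. The response median keeps such genes, namely Cxcl1 (2 against 0 counts) and Nos2 (3 against 0 counts). Cell type genes differed between the controls as well. Of 8 erythroid genes, 7 were higher in control replicate 1 (median 1.79-fold), with sums of 4530 and 2030 CPM in controls 1 and 2. Eosinophil, basophil and mast cell genes summed to 869 and 587 CPM. In that list Prg2 (300 and 76.7 CPM, 3.91-fold) and Epx (59.5 and 12.2 CPM, 4.87-fold) differed most, though its median was 1.03-fold. Apart from the erythroid list, medians of the cell type lists ran from 0.878-fold (B cell) to 1.14-fold (macrophage). Among the members, 4 of 10 were higher in control replicate 1, namely Tlr2, Tlr7, Tlr13 and Cd14, of which Tlr7 and Tlr13 differed 1.03-fold and 1.09-fold and Tlr2 2.26-fold. The part of this difference in the results for Cd14 and Tlr2 was not tested.

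**Figure D2:**
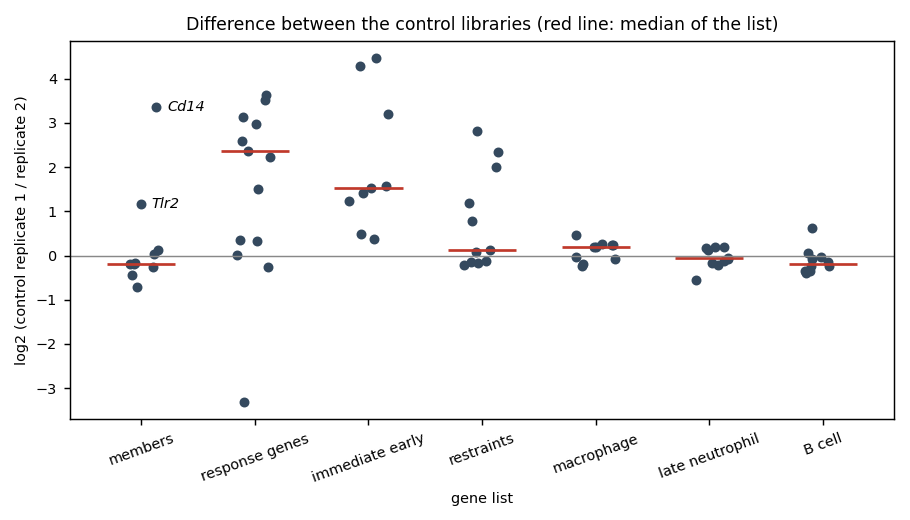
Difference between the control libraries, as the log2 ratio of replicate 1 to replicate 2, for the genes of 7 lists (points) with the list median (red line). Cd14 and Tlr2 stand above the other members, at heights like those of the response and immediate early genes, while macrophage, late neutrophil and B cell markers lie near 0. Other cell type lists are not drawn, among them the erythroid genes, with a median of 1.79-fold. Response genes with 0 counts in replicate 2 are not drawn but count in the median.

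Line by line, VpR126 medium gave the highest level of 7 of the 10 genes (Tlr1, Tlr2, Tlr3, Tlr6, Tlr8, Tlr9 and Cd14), where 31.7% of all tested genes were highest in that library. VpR2020 was highest for Tlr7, VpR99 for Tlr4 and VpR83 for Tlr13. VpR99 was lowest for 6 genes, against 26.7% of all tested genes. Tlr1, Tlr6, Tlr8 and Tlr9 shared the order VpR126, VpR2020, VpR83 and VpR99. Of the 10 macrophage markers, 5 had this order, among them Csf1r, which encodes the receptor for the growth factor CSF1, and the other 5 had another. Csf1r had 1835, 982, 4742 and 2656 CPM in VpR83, VpR99, VpR126 and VpR2020, against 166 and 169 CPM in controls 1 and 2. The mannose receptor gene Mrc1, Lgals3 and Gpnmb were lowest in VpR126, Cd68 was highest in VpR83 and Trem2 highest in VpR2020. Of the conditioned libraries, VpR99 had the lowest macrophage sum (16750 CPM) and the highest late neutrophil sum (15934 CPM). Neutrophil precursor markers summed to 516, 2529, 532 and 391 CPM in VpR83, VpR99, VpR126 and VpR2020, against 3795 and 3649 CPM in controls 1 and 2. The part of these markers in the order was not tested. With 1 library per line the order has no replicate check. Of 30 steps between neighbouring lines, 5 had overlapping counting intervals and 16 were no larger than the ratio of the 2 controls for that gene. All 4 lines lay within the control ratio for Tlr4 and Cd14. In the order shared by Tlr1, Tlr6, Tlr8 and Tlr9, each single step of Tlr6 was within its control ratio. So was VpR83 over VpR99 for Tlr1 (1.015-fold) and Tlr8 (1.115-fold). Steps beyond the control ratio included VpR126 over the next line for Tlr1 (2.002-fold over VpR2020), Tlr2 (2.68-fold over VpR99), Tlr3 (2.04-fold over VpR99) and Tlr9 (2.02-fold over VpR2020).

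**Figure D3:**
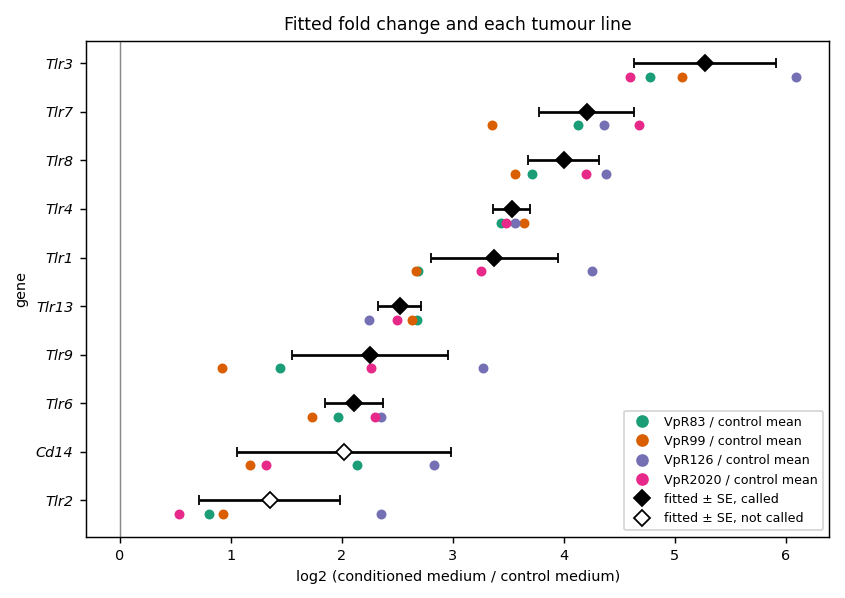
Log2 ratio of conditioned over control medium for each gene: the fitted value ± SE (diamonds, filled where called) and each line's library over the control mean (coloured points). Lines cluster tightly for Tlr4 (3.43 to 3.64) and spread widely for Tlr9 (0.92 to 3.27) and Tlr2 (0.53 to 2.35).

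Per length of exon, summed CPM per kb of the 12 Toll-like receptor genes (the 9 with Tlr5, Tlr11 and Tlr12) was 313, 284, 489 and 356 in VpR83, VpR99, VpR126 and VpR2020, against 74.1 and 54.4 in controls 1 and 2. In conditioned medium the mean levels per kb ran from Tlr13 (89.5 ± 11.6 CPM per kb, SD, n = 4) over Tlr2 (70.4 ± 47.4), Tlr7 (64.7 ± 22.5) and Tlr8 (42.3 ± 11.3) to Tlr1 (30.3 ± 17.7), Tlr4 (24.8 ± 1.55), Tlr9 (19.3 ± 14.1), Tlr6 (12.4 ± 2.41) and Tlr3 (4.19 ± 2.21). The order is one of means, since Tlr2 stood above Tlr13 in VpR126 (141 against 73.8 CPM per kb) and Tlr7 above it in VpR2020 (89.5 against 87.9 CPM per kb). Neighbours in this order differed by less than the larger of their SDs, except Tlr6 over Tlr3. In control medium Tlr2 (27.6 ± 15.0 CPM per kb, SD, n = 2) and Tlr13 (15.6 ± 0.991) stood above the others, which ran from 4.05 ± 0.381 (Tlr9) to 0.109 ± 0.0369 (Tlr3). Cd14 had 109 ± 60.3 CPM per kb in conditioned medium and 26.9 ± 31.3 in control medium.

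The make-up of receptor transcripts per length differed accordingly. Tlr2 held 15.4%, 18.5%, 28.8% and 11.2% of the summed CPM per kb in VpR83, VpR99, VpR126 and VpR2020, against 51.6% and 31.1% in controls 1 and 2. Tlr7 held 18.03% ± 5.58 in conditioned medium and 5.57% ± 1.11 in control medium (SD, n = 4 and n = 2), and Tlr8 11.7% ± 1.28 and 4.25% ± 1.28. Endosomal receptors together held 67.2%, 61.6%, 51.0% and 69.9% in VpR83, VpR99, VpR126 and VpR2020, against 37.1% and 50.6% in controls 1 and 2. VpR126 and control replicate 2 were thus nearly level, and the groups were separated by less than the spread within either. These shares are a description of summed values and were not tested.

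**Figure D4:**
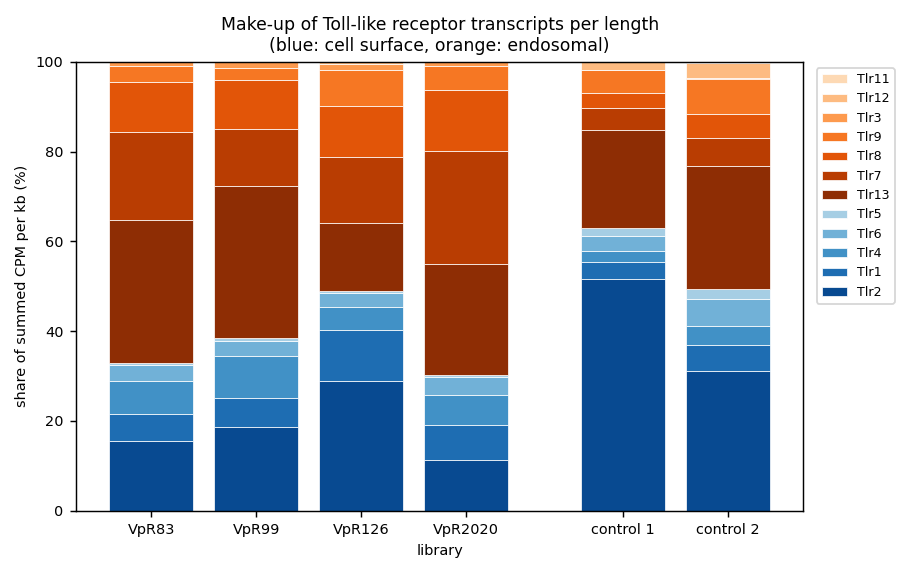
Share of each of 12 Toll-like receptor genes in their summed CPM per kb (%), in the 4 conditioned libraries and the 2 controls, surface receptors in blue and endosomal ones in orange. Tlr2 (darkest blue) takes 11.2% to 28.8% in conditioned libraries and 31.1% to 51.6% in controls, and Tlr7 and Tlr8 take more in each conditioned library than in either control.

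Of the receptors outside the set, none was called. Tlr5, the flagellin receptor gene, had 6.74, 8.33, 13.5 and 6.86 CPM in VpR83, VpR99, VpR126 and VpR2020, against 5.87 and 5.83 CPM in controls 1 and 2 (log2 fold change 0.60 ± 0.35, edgeR adjusted p = 0.20). Tlr12, whose product binds profilin of protozoan parasites in the mouse, had 0.403, 0.511, 4.44 and 0.498 CPM in the conditioned libraries, against 3.999 and 5.498 CPM in the controls. The VpR126 library alone was at the level of the controls. With it the log2 fold change of Tlr12 was -1.71 ± 1.03 (edgeR adjusted p = 0.215), and without it -3.30 (adjusted p = 0.0016, range 0.0016 to 0.48). limma-voom also called it lower. Tlr11, which also recognises profilin, had 7 to 40 counts in each library, up to 1.69 CPM (0.88 ± 1.10, adjusted p = 0.54).

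The genes that act with the receptors moved less uniformly. Of 81 pathway genes listed by role, 76 were tested, of which 32 rose, 6 fell and 38 were not called, where 22.5% of all tested genes rose and 19.7% fell. Their median log2 fold change was 0.79. Leaving out control replicate 1 gave 14 higher and 1 lower, and leaving out control replicate 2 gave 13 and 3, in fits that called 14.0% and 14.3% of all genes. Without VpR83 or VpR2020, 3 fell.

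Coreceptor and chaperone genes rose in 5 of 8 tested cases and fell in none (median 1.22), beside 22.5% and 19.7% of all tested genes. Ly96, which encodes the TLR4 partner MD-2, had 10.5 ± 2.31 CPM in conditioned medium and 4.43 ± 0.514 CPM in control medium (SD, n = 4 and n = 2), and rose by 1.25 ± 0.28 on the log2 scale (edgeR adjusted p = 0.014). Cd180 and Ly86, which encode a TLR4-like surface receptor and its MD-2-like partner, rose by 2.57 ± 0.17 and 1.60 ± 0.39, and Cd36, a scavenger receptor gene that assists TLR2 with TLR6, by 4.48 ± 0.77. The endoplasmic reticulum chaperone gene Hsp90b1, needed for folding of most Toll-like receptors, rose by 0.99 ± 0.27. Unc93b1 had 742, 519, 1378 and 1012 CPM in VpR83, VpR99, VpR126 and VpR2020, against 390 and 406 CPM in controls 1 and 2. These groups did not overlap, but its log2 fold change of 1.20 ± 0.40 missed the threshold (edgeR adjusted p = 0.051, range 0.011 to 0.22). It was called under 5 of the 13 alternatives, with DESeq2, with limma-voom, without a low-count filter, and without VpR99 or VpR126. Cnpy3, a cochaperone gene, had 0.63 ± 0.23 (adjusted p = 0.066, range 0.040 to 0.26) and was called without VpR99. Cd36 and Cd180 alone were called without control replicate 1, and Cd180 alone without control replicate 2. Hsp90b1 was also not called without VpR83 or with library totals alone. Leaving out VpR99, 7 genes rose and Lbp, which encodes the lipopolysaccharide-binding protein, fell.

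Genes for endosomal processing and nucleic acid handling rose in 9 of 12 cases and fell in none (median 2.55), where 22.5% of all tested genes rose and 19.7% fell. The protease genes Lgmn, Ctsb, Ctsl and Ctss, whose products cleave endosomal receptors into their active form, rose by 5.34 ± 0.38, 4.64 ± 0.35, 4.86 ± 0.62 and 2.91 ± 0.28. Lgmn, which encodes asparagine endopeptidase, had 1795 ± 530 CPM in conditioned medium and 44.4 ± 2.18 CPM in control medium (SD, n = 4 and n = 2). The exonuclease genes Pld3 and Pld4, whose products degrade single-stranded nucleic acids and so limit TLR9 and TLR7 responses, rose by 2.68 ± 0.35 and 1.45 ± 0.28. Pld4 was not called without either control (range of adjusted p over all alternatives 2.2e-05 to 0.083), and 8 genes of the list still passed.

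Adaptor genes rose in 4 of 5 tested cases and fell in none (median 1.21), beside 22.5% and 19.7% of all tested genes. Ticam1, which encodes TRIF, rose by 1.21 ± 0.19, its TLR4-bridging partner Ticam2 by 1.68 ± 0.35, Tirap, the bridge to MyD88, by 0.61 ± 0.17, and the phosphoinositide kinase adaptor gene Pik3ap1 by 2.25 ± 0.37. Myd88 itself had 78.6, 147, 126 and 71.5 CPM in VpR83, VpR99, VpR126 and VpR2020, against 64.3 and 85.6 CPM in controls 1 and 2, and the groups overlapped (0.50 ± 0.34, edgeR adjusted p = 0.27). Of this list only Ticam1 passed without control replicate 1 and without control replicate 2, since Pik3ap1, Ticam2 and Tirap were lost in both, and Tirap also without VpR83 and under upper-quartile or library-total scaling (range of its adjusted p 0.0078 to 0.17).

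Kinase and ubiquitin ligase genes rose in 8 of 18 cases and fell in 1 (median 0.53), beside 22.5% and 19.7% of all tested genes. Ikbke, which encodes a kinase that activates interferon regulatory factors, rose by 3.26 ± 0.73, with 182, 163, 678 and 215 CPM in VpR83, VpR99, VpR126 and VpR2020, against 32.8 and 31.8 CPM in controls 1 and 2. Its relative Tbk1 rose by 1.17 ± 0.17, the receptor-proximal kinase gene Irak1 by 0.65 ± 0.12 and the adaptor gene Tab2 by 0.51 ± 0.16. Tab1, which encodes an activator of the kinase TAK1, was the gene that fell, by 0.52 on the log2 scale. Ikbkb and Map3k7 were not called (0.12 ± 0.17 and 0.32 ± 0.12, edgeR adjusted p = 0.58 and 0.076). The list held 2 higher genes without control replicate 1 and 3 without control replicate 2, and Ikbke, Irak1, Tab2 and Tab1 were not called in either case. Tab2 and Tab1 also failed without VpR83 or VpR2020, Tab2 under upper-quartile or library-total scaling, and Tab1 without a low-count filter.

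Among 7 transcription factor genes 1 rose and 1 fell (median 0.48), no larger a share in either direction than over all tested genes (22.5% and 19.7%). Irf5, which acts below MyD88 in macrophages, rose by 0.73 ± 0.22, and Irf3, which acts below TRIF, fell by 0.55. Neither was called without control replicate 1, control replicate 2, VpR83 or VpR2020, nor was Irf5 under upper-quartile or library-total scaling, nor Irf3 without a low-count filter. The NF-κB subunit genes Nfkb1, Rela and Rel were not called (0.20 ± 0.26, 0.09 ± 0.21 and 0.48 ± 0.31), and the first 2 had values below 0 without VpR126, and when scaled by upper quartiles or by library totals alone. Nfkb2 was not called (1.06 ± 0.55, edgeR adjusted p = 0.16, range 0.049 to 0.39) but passed without VpR126. Irf7, an interferon-inducible regulator, had 21.5, 371, 585 and 27.7 CPM in VpR83, VpR99, VpR126 and VpR2020, against 43.2 and 53.5 CPM in controls 1 and 2. VpR99 and VpR126 lay above the controls and VpR83 and VpR2020 below them.

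Of 11 genes that restrain signalling, 2 rose, 2 fell and 7 were not called (median -0.28), shares near those of all tested genes (22.5% and 19.7%). Trim30a, which encodes a ubiquitin ligase that acts on TAB2 and TAB3 in the mouse, rose by 2.17 ± 0.59, and Tollip, which encodes an inhibitor of IRAK1, by 0.49 ± 0.15. Sigirr, which encodes an inhibitory member of the receptor superfamily, fell by 1.08 and the phosphatase gene Dusp1, also an immediate early gene, by 2.67. Sigirr was singled out after its values were seen. Tnfaip3 (A20) and Nfkbia (IκBα) were not called (-0.94 ± 0.74 and -0.31 ± 0.43) and had values above 0 without control replicate 1. Either control left out, 1 gene fell and 0 rose. Trim30a and Tollip were lost without a low-count filter, too. Tollip was also lost without VpR83, VpR99 or VpR2020 and under upper-quartile or library-total scaling, and 3 genes fell without VpR126. Dusp1 was not called without control replicate 1 (-1.36, edgeR adjusted p = 0.064, range 6.8e-06 to 0.064), nor Sigirr without control replicate 2.

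Of 15 tested response genes 3 rose, 2 fell and 10 were not called (median 1.07), shares near or below those of all tested genes (22.5% and 19.7%). The risers were Saa3, an acute-phase gene, and the cytokine genes Il1a and Cxcl1, and Il1b and Ptgs2, which encodes a prostaglandin synthase, fell. Cxcl1 rested on few reads, with 24, 258, 23 and 15 counts in VpR83, VpR99, VpR126 and VpR2020, and 2 and 0 in controls 1 and 2. Il1a had 19 and 16 counts in controls 1 and 2. Ptgs2 had 7.54, 14.1, 5.66 and 3.60 CPM in VpR83, VpR99, VpR126 and VpR2020, against 110.3 and 12.5 CPM in controls 1 and 2, and the groups overlapped. Its log2 fold change of -2.98 ± 0.83 (edgeR adjusted p = 0.029, range 0.00071 to 0.51) shrank to -0.69 without control replicate 1. The call was lost there, without VpR83, VpR126 or VpR2020, with limma-voom and without a low-count filter. Saa3 had 73.5, 375, 1275 and 34.6 CPM in VpR83, VpR99, VpR126 and VpR2020, against 0.0333 and 0.329 CPM in controls 1 and 2, and no conditioned library came near the controls. Its call was lost without either control, with limma-voom and without a low-count filter (range of adjusted p over the alternatives 6.9e-11 to 0.13). Il1b, which encodes the cytokine IL-1β, had 36.1, 51.8, 53.3 and 18.75 CPM in the conditioned libraries, against 394 and 83.6 CPM in the controls. It fell by 2.58 on the log2 scale (edgeR adjusted p = 0.019), and by 1.06 without control replicate 1, where the call was lost, as it was without a low-count filter (range 0.00023 to 0.21). Acod1, which encodes the enzyme that makes itaconate in macrophages, had 63.2, 109, 399 and 33.0 CPM in VpR83, VpR99, VpR126 and VpR2020, against 22.5 and 3.76 CPM in controls 1 and 2 (3.52 ± 1.32, edgeR adjusted p = 0.072, range 0.0011 to 0.27, called with DESeq2). The chemokine genes Ccl3, Ccl4 and Cxcl2 overlapped between the groups and were not called (0.49 ± 0.65, 0.85 ± 0.84 and 0.83 ± 1.02). The values of Ccl3 and Cxcl2 were below 0 without control replicate 2. Leaving out control replicate 1, 1 response gene rose and 0 fell, and leaving out replicate 2, 0 rose and 2 fell. There were 5 higher and 1 lower without VpR2020, 1 lower without VpR83 and 3 lower without VpR126, and DESeq2 called 7 higher.

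**Figure D5:**
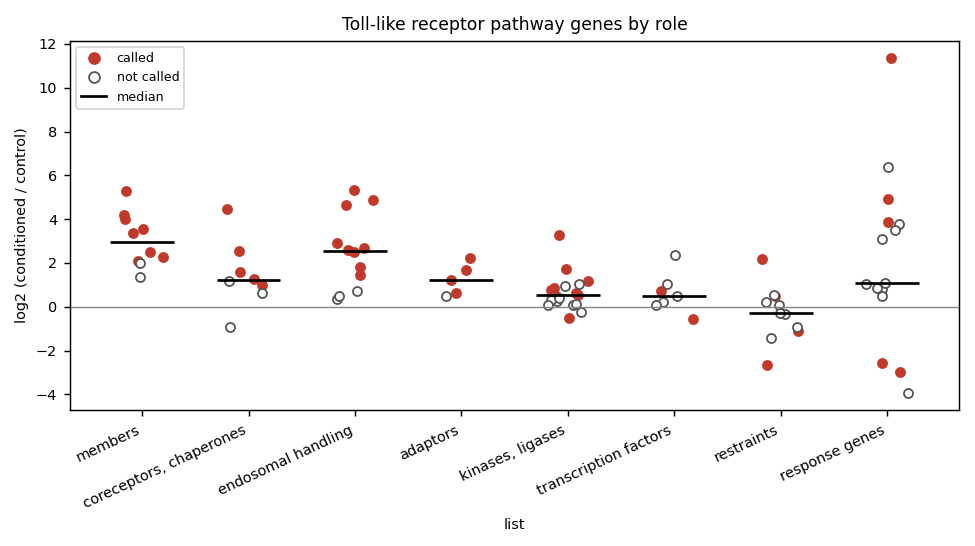
Log2 fold change of conditioned over control medium for the tested genes of each role (points, red where called) with the list median (black line). The members (median 2.95) and endosomal handling genes (2.55) lie highest, kinases and transcription factors have medians of 0.53 and 0.48, and response genes spread in both directions.

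For each member, the gene with the most similar pattern was sought among 9013 others with a mean of at least 10 CPM, as the smallest root mean square difference of log2 CPM centred over the 6 libraries. The closest match was that of Tlr13 with Mrtfb, a transcriptional coactivator gene (difference 0.08), followed by Tlr6 with Fez2 (0.10), Tlr8 with Dse, which encodes a dermatan sulfate epimerase (0.11), and Tlr4 with Atp7a, a copper transporter gene (0.12). Tlr7, Tlr1 and Tlr9 were nearest to Kctd12b, the lysosomal acid phosphatase gene Acp2, and Tbc1d4 (0.17, 0.18 and 0.19). Tlr3 was nearest to Ifi207, of the interferon-inducible p200 family (0.28), and Tlr2 to the inflammasome gene Nlrp3 (0.30). Nothing came close to Cd14, whose nearest identifier has no symbol in the annotation used (0.56).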

How the data were processed

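The kit was a stranded TruSeq kit, per the labels' protocols. The submitters' processing notes name Trimmomatic 0.38, STAR 2.5.2b and build GRCm38. No source used here gives the counting tool, its strand setting or its annotation release. What the authors deposited are raw counts per Ensembl gene. Of 45706 identifiers, 45143 matched GENCODE M21 (GRCm38), which gave symbols, coordinates and lengths. A count of 0 allows up to 3 counts, or 0.0232 to 0.161 CPM.

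Genes were tested with edgeR 4.0.16 in R 4.3.3 (filterByExpr, TMM, robust quasi-likelihood fit on group alone, two-sided, Benjamini-Hochberg over every gene that passed the filter), a procedure tested on simulated data. The SE was obtained as the size of the log2 fold change over the root of F. CPM per kb uses the union of exons. Alternatives were DESeq2 1.42.0, limma 3.58.1 (voom), other scalings, no filter on low counts, VpR99 thinned, and each library left out. The members and lists were chosen with earlier results of these data known. Named genes were the members, Tlr5, Tlr11 and Tlr12, up to 6 tested genes per pathway list with the highest mean CPM whatever their change, single exceptions to a list's direction, and each member's nearest pattern. Ly96, Lbp, Sigirr, Il1a, Cxcl1, Ptgs2, Nos2, Nr4a1, Egr1, Atf3, Ier2, Prg2, Epx, Cdh1, Csf1r and the other macrophage markers fall outside it and were chosen after their values were seen.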

Additional observations from a re-analysis of the deposited data

Results flagged for a closer look

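In 10 of the 54 genes looked at, the gap between the most extreme conditioned library and its nearest neighbour exceeded Dixon's 95% critical value for 4 samples. The share of all tested genes flagged by this rule was not worked out, so the count cannot be called particular to these genes. The critical value is set to flag about 1 in 20 groups of independent, normally distributed values. CPM of 4 different lines, taken without logs, need not be such values, so the 10 cannot be set against that rate. In 8 of the 10 the library was VpR126 and it was the highest, where 31.7% of all tested genes were highest in that library. Tlr2 had 425 CPM in VpR126, and the next library had 159 CPM. Tlr12 had 4.44 CPM there, and the next library 0.511 CPM. Cd36 had 733 CPM in VpR126 (next 282), Ikbke 678 CPM (next 215), Nfkb2 184 CPM (next 66.2), Nfkb1 249.8 CPM (next 156), Irf5 245 CPM (next 168) and Tbk1 123 CPM (next 97.2). In VpR99, Ctsl had 2770.4 CPM (next 1232) and Tirap 43.6 CPM (next 33.8).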

How the results depend on the processing

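Over 13 alternatives, the 10 members kept their direction and their side of the threshold in 120 of 130 fits, with 8 calls lost (Tlr1 and Tlr9) and 2 gained (Cd14), and none changed sign. Members called higher numbered 6 to 8 when single libraries were left out, 7 under upper-quartile scaling, without a low-count filter and with limma-voom, and 9 with DESeq2, and 0 were called lower throughout. Leaving out single libraries, 2201 to 7031 genes were called in all (1283 to 3657 higher and 918 to 3374 lower), and of the pathway genes 13 to 35 were called higher and 1 to 8 lower. The lowest counts came from leaving out a control, where the lone control is assumed to vary like the conditioned libraries. Without a low-count filter 2 pathway genes were called lower. Upper-quartile scaling and library totals moved the median over all genes tested to -0.22 and -0.26 (log2), and the higher share of calls to 40% and 38.6%, in place of 53.3%. Signs changed only in genes that were not called. With limma-voom Tlr11 was at -0.022. Under upper-quartile scaling and library totals, Ikbkb was at -0.084 and -0.12, Nfkb1 at -0.011 and -0.052, and Rela at -0.11 and -0.15, and Cyld was at -0.038 with library totals. Leaving out single libraries, Nfkb1 ran from -0.016 (without VpR126) to 0.30, Rela from -0.059 (without VpR126) to 0.18, Nfkbia from -0.67 to 0.13 and Tnfaip3 from -1.73 to 1.08 (both highest without control replicate 1), and Ccl3 from -0.23 to 2.12 and Cxcl2 from -0.023 to 3.46 (both lowest without control replicate 2). The causes were not tested. Across 58 other named genes, 647 of 754 fits kept the call, 85 lost it, 9 gained it and 13 changed sign. With the longest transcript as length, 5 of 26 levels per kb moved by more than 1 SD. No paired analysis was possible because only the control libraries carry replicate numbers.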
